A study of Mus musculus with 12 samples.

Results

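The genes described here are 9 markers of motor neurons and of acetylcholine signalling, matched by symbol among the 54532 genes of a count table from whole mouse spinal cord. They are Chat, Slc5a7, Slc18a3 and Ache of the acetylcholine cycle, the transcription factor genes Isl1, Isl2 and Mnx1, and Chodl and Esrrg, which mark subtypes of motor neurons. All 9 were found and all 9 passed the filter on low counts in every fit. The 12 libraries came from C57BL/6 mice aged 2 to 3 months, 3 libraries to a group, each labelled as a separate biological replicate. The groups were mice with a conditional deletion of the dopamine receptor gene Drd2, labelled Drd2mGFAP cKO, at day 17 of experimental autoimmune encephalomyelitis (cKO EAE), their littermates labelled wt at the same day (control EAE), cKO mice without disease (cKO basal) and littermates without disease (control basal). GFAP is the gene of an astrocyte filament protein whose promoter is widely used to direct a deletion to astrocytes; the driver line and the deleted part of Drd2 are not given in the sources used here.

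Acetylcholine is made from choline and acetyl-CoA by choline acetyltransferase, packed into synaptic vesicles by the vesicular acetylcholine transporter, and split by acetylcholinesterase after release, and the freed choline is taken back up by the high-affinity choline transporter. In the spinal cord the main users of this cycle are the motor neurons, whose axons leave the cord to drive muscle; preganglionic autonomic neurons and a few interneurons use it as well. Motor neurons are set up in the embryo by LIM homeodomain factors and the homeobox factor Mnx1, and part of this programme stays on in adult cells. EAE is an immune attack on myelin in which leukocytes enter the cord.

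The genes of the synthetic enzyme and the vesicular transporter share a locus. On the minus strand of chromosome 14 in build mm10, Chat (ENSMUSG00000021919) ran from 32408203 to 32465989 and Slc18a3 (ENSMUSG00000100241) from 32462438 to 32464850. Slc18a3 is a single exon that lay 1139 to 3551 bases downstream of the Chat start, inside intron 1 of Chat-201, and it overlapped 0 exons of any Chat transcript. The 250 bases upstream of each RefSeq transcript start (12 windows for the 9 genes, RefSeq sequence on GRCm38.p6) were searched on both strands for TAATTA, the core of homeodomain sites, and for TNAAGGTCA, an oestrogen-related receptor element. Neither occurred in any of the 12 windows; they occurred in 4.84% and 1.14% of 32851 windows of all genes. TGACG, the core of the cyclic AMP response element, was searched for after the windows had been read and occurred upstream of Chat, Slc18a3, Isl1 and Isl2, which is 4 of 12 windows, against 17.8% of all windows. A match is a description of the letters, not evidence of a binding site. The windows of Chat and Slc18a3 are shown because the genes share a locus, and that of Slc5a7 because it had the largest change among the acetylcholine genes. That of Isl2 is shown because it held 3 matches, 2 of them overlapping. Bases inside annotated exons of the same gene are left out. Those of other genes are not: the Chat and Slc18a3 windows overlap the antisense gene Gm2990, which ran from 32465042 to 32483548. Each is written 5′ to 3′ along its gene, and capitals mark TGACG or its reverse complement CGTCA.
Chat, chr14:32465990-32466159, minus strand: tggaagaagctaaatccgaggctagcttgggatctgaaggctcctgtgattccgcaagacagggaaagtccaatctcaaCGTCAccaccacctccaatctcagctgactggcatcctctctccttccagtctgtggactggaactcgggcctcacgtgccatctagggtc
Slc18a3, chr14:32464851-32465100, minus strand: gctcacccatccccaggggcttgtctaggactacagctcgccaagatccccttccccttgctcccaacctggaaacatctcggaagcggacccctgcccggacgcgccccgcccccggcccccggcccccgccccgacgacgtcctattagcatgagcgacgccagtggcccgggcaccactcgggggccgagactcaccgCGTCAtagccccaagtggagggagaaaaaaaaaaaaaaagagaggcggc
Slc5a7, chr17:54299035-54299284, minus strand: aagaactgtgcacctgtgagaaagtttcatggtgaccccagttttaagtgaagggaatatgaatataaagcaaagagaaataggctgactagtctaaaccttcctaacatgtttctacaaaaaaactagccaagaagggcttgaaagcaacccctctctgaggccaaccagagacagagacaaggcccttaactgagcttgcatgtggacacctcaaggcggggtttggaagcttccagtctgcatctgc
Isl2, chr9:55540899-55541147, plus strand: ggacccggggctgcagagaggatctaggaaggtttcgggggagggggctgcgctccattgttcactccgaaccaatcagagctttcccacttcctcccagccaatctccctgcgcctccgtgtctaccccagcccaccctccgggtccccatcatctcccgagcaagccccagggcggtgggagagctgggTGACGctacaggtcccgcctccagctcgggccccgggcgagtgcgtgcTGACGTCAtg

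**Figure D1:**
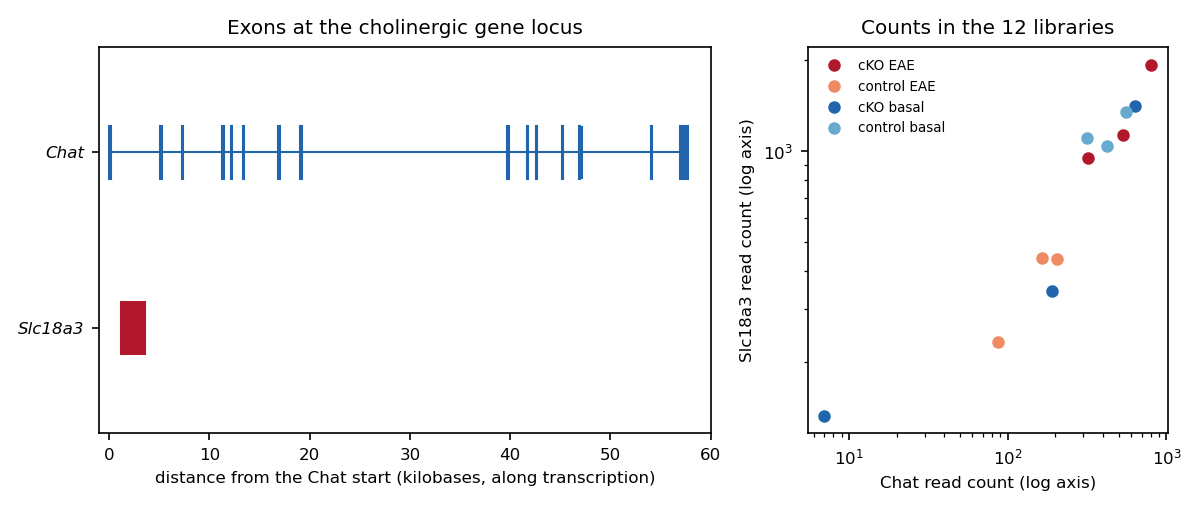
Left, exons of Chat-201 and Slc18a3 by distance from the Chat start in kilobases along transcription, with Slc18a3 between 1139 and 3551 bases, inside the first intron. Right, read counts of Slc18a3 against Chat on log axes, 1 point per library coloured by group. cKO basal 2, at the lower left with 7 Chat and 133 Slc18a3 counts, stands apart from the other libraries.

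Library totals ran from 15128913 to 17592105 counts. cKO basal 2 stood apart, with 17220 genes detected against 24303 to 26056 in the other 11 libraries and 1.19% mitochondrial mRNA against 4.10% to 6.56%. cKO EAE 3 had 6.84 CPM of Cd74, an antigen presentation gene, against 345 to 2759 CPM in the other EAE libraries and 0.727 to 3.18 CPM in the basal ones. Drd2 stood at 6.84 to 20.2 CPM in cKO EAE, 8.96 to 10.0 CPM in control EAE, 18.1 to 36.6 CPM in cKO basal and 20.0 to 26.8 CPM in control basal, so that whole-cord counts gave no check of the deletion. The Y-linked gene Ddx3y was at 0 counts in all 6 basal libraries and at 70.3 to 77.0 CPM in all 6 EAE libraries, so that the sex of the mice and EAE cannot be told apart in any EAE against basal comparison. Hox genes of the cord (6 genes, 133 to 359 CPM in sum) far exceeded forebrain genes (4 genes, 1.40 to 5.35 CPM in sum) in every library.

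At day 17 of EAE all 9 genes were higher in cKO than in control cords, and for each of them the lowest cKO EAE library lay above the highest control EAE library. Of 17914 genes tested over the 6 EAE libraries, 21.2% were higher without overlap in the same way. With edgeR's quasi-likelihood F test, adjusted by Benjamini-Hochberg over all genes, 8 of the 9 rose, against 6.13% of all genes; Mnx1 did not pass. Fold changes ran from 1.54-fold for Ache to 5.85-fold for Isl2, and the median log2 fold change was 1.92, against -0.00019 over all genes tested. In bulk tissue, fewer cells of a type and less RNA per cell cannot be told apart.

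**Figure D2:**
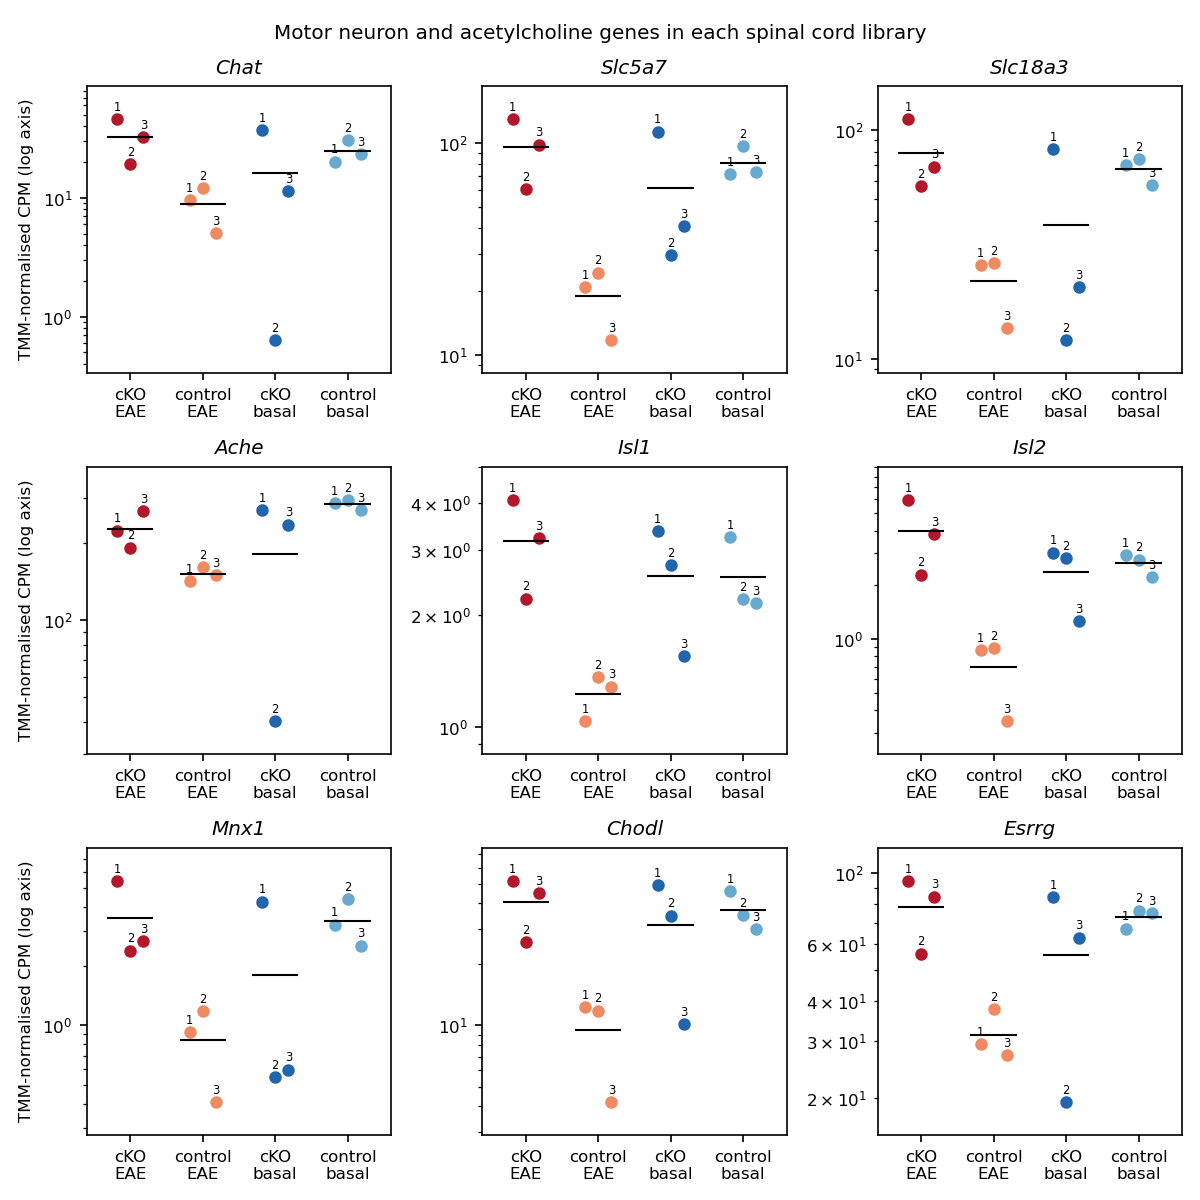
TMM-normalised CPM of each gene on a log axis, 1 point per library numbered by replicate, in cKO EAE, control EAE, cKO basal and control basal cords; the line is the mean of 3. In all 9 panels the cKO EAE points lie above the control EAE points, and the cKO basal points of Chat are spread between 0.637 and 37.0 CPM.

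Levels below are CPM (counts scaled to library size, here with TMM factors), given for replicates 1, 2 and 3 in that order. Slc5a7, the high-affinity choline transporter that limits the supply of choline for synthesis, had 130.2, 60.9 and 98.7 CPM in cKO EAE cords, against 20.9, 24.4 and 11.8 CPM in control EAE cords. The lowest cKO EAE library lay well above the highest control EAE library, and the log2 fold change was 2.39 ± 0.37 (SE, adjusted p = 0.0440, edgeR). Chat, the synthetic enzyme, had 46.1, 19.3 and 32.6 CPM in cKO EAE cords, against 9.52, 12.1 and 5.07 CPM in control EAE cords. The groups did not overlap, with a log2 fold change of 1.92 ± 0.42 (adjusted p = 0.0482, edgeR). Slc18a3, the vesicular transporter, had 111.2, 56.7 and 68.9 CPM in cKO EAE cords, against 25.6, 26.1 and 13.6 CPM in control EAE cords. The difference was 1.90 ± 0.35 on the log2 scale (adjusted p = 0.0440, edgeR), beside 1.92 for Chat at the same locus.

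Ache, whose product ends the signal, showed the smallest change. It had 224, 192 and 267 CPM in cKO EAE cords, against 142, 161 and 150.2 CPM in control EAE cords. The groups were apart but near each other, and the log2 fold change was 0.63 ± 0.14 (adjusted p = 0.0482, edgeR). Ache is expressed in many cells besides cholinergic neurons.

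The transcription factor genes were low throughout. Isl2, which marks motor neurons and also sensory ganglion neurons, had 5.92, 2.28 and 3.83 CPM in cKO EAE cords, against 0.865, 0.888 and 0.350 CPM in control EAE cords. The control EAE values rested on 6 to 15 reads a library, so that counting error was sizeable. The groups were apart, and the log2 fold change was 2.55 ± 0.49 (adjusted p = 0.0440, edgeR). Isl1, its close relative, had 4.08, 2.22 and 3.22 CPM in cKO EAE cords, against 1.04, 1.36 and 1.28 CPM in control EAE cords. The control libraries, at 18 to 23 reads, lay close together, and the log2 fold change was 1.41 ± 0.30 (adjusted p = 0.0476, edgeR). Mnx1 (also called Hb9) had 5.40, 2.40 and 2.67 CPM in cKO EAE cords, against 0.923, 1.18 and 0.408 CPM in control EAE cords. The groups did not overlap, but the log2 fold change of 2.09 ± 0.49 did not pass (adjusted p = 0.0509, edgeR), with 7 to 20 reads in the control EAE libraries.

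Chodl, a surface protein gene that marks fast motor neurons, had 51.5, 25.7 and 44.9 CPM in cKO EAE cords, against 12.3, 11.8 and 4.20 CPM in control EAE cords. Its log2 fold change was 2.15 ± 0.45 (adjusted p = 0.0472, edgeR). Esrrg, an orphan nuclear receptor gene high in gamma motor neurons and also expressed by interneurons, had 94.4, 56.2 and 84.5 CPM in cKO EAE cords, against 29.4, 37.8 and 27.2 CPM in control EAE cords. Its log2 fold change was 1.36 ± 0.23 (adjusted p = 0.0440, edgeR). For both genes the cKO EAE libraries lay above all control EAE libraries.

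In the main fit these calls lay close to the threshold, and the alternatives moved them to either side of it. Over the edgeR and DESeq2 tests the adjusted p of Slc5a7 ran from 9.8e-09 to 0.201 and that of Ache from 0.00226 to 0.713. None of the 9 passed when cKO EAE 1 or any of control EAE 1, 2 and 3 was left out (0 genes of the whole table passed then), whereas all 9 passed without cKO EAE 2 (18.6% of all genes did) or without cKO EAE 3 (18.2%). With DESeq2's size factors 5 passed (5.74% of all genes), and with all 12 libraries in the fit 0 did (0%); the log2 fold changes kept their sign throughout, Slc5a7 between 2.10 and 2.63 and Chat between 1.57 and 2.20 over all alternatives.

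Among 11 other genes of acetylcholine supply and clearance, 10 were tested and 2 rose in cKO EAE over control EAE cords, with a median log2 fold change of -0.02. Of all genes tested 6.13% rose, with a median of -0.00019, and the lists that follow stand beside the same values. Bche, butyrylcholinesterase, averaged 12.2 ± 2.46 CPM in cKO EAE and 5.26 ± 0.603 CPM in control EAE cords (SD, n = 3 each), a log2 fold change of 1.26 ± 0.21 (adjusted p = 0.0440, edgeR). Prima1, which anchors acetylcholinesterase in neuronal membranes, averaged 21.2 ± 3.53 CPM in cKO EAE and 11.3 ± 0.832 CPM in control EAE cords, a log2 fold change of 0.94 ± 0.16 (adjusted p = 0.0440, edgeR). Slc10a4, a vesicle protein gene of cholinergic terminals, averaged 38.7 ± 12.1 CPM in cKO EAE and 10.1 ± 5.45 CPM in control EAE cords and did not pass (log2 fold change 1.98 ± 0.48, adjusted p = 0.0524, edgeR). Colq, the collagen tail of the synaptic esterase, had a log2 fold change of 1.09 ± 0.29 and did not pass either (adjusted p = 0.0618, edgeR). The choline transporter-like genes Slc44a1, Slc44a2, Slc44a3 and Slc44a5 and the choline kinase genes Chka and Chkb, which serve membrane lipid synthesis in most cells, did not pass, with log2 fold changes of -0.59 to 0.06.

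Of 21 acetylcholine receptor genes 14 were tested and 2 rose in cKO EAE over control EAE cords, with a median log2 fold change of 0.58. Chrna2, a nicotinic subunit of spinal interneurons that include Renshaw cells, the targets of motor neuron collaterals, averaged 3.86 ± 1.48 CPM in cKO EAE and 0.680 ± 0.128 CPM in control EAE cords (log2 fold change 2.53 ± 0.38, adjusted p = 0.0440, edgeR). Chrm2, a muscarinic receptor gene expressed by motor neurons, averaged 86.1 ± 23.2 CPM in cKO EAE and 35.7 ± 7.56 CPM in control EAE cords (log2 fold change 1.31 ± 0.25, adjusted p = 0.0440, edgeR). Chrna4 and Chrna7, nicotinic subunits of central synapses, had log2 fold changes of 0.72 ± 0.17 and 0.84 ± 0.21 and did not pass. Chrnd and Chrng, subunits of the muscle receptor, were at 0 counts in all EAE and control basal libraries. The other subunits of that receptor were detected. Group means ran from 3.59 to 4.84 CPM for Chrnb1, 0.545 to 1.82 CPM for Chrna1 and 0.0402 to 0.116 CPM for Chrne.

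Of 21 other genes linked to motor neurons 20 were tested and 5 rose in cKO EAE over control EAE cords, with a median log2 fold change of 0.86. They were Nrg1, a growth factor gene at motor neuron synapses (1.22 ± 0.20 on the log2 scale), Lhx4, a LIM homeodomain partner of Isl1 (1.59 ± 0.28), Nefh, the heavy neurofilament chain of large axons (1.38 ± 0.27), Tns1, a tensin gene (0.68 ± 0.14), and Ret, the receptor for glial neurotrophic factors (1.05 ± 0.24, adjusted p = 0.0493, edgeR). Nefh averaged 1463 ± 359 CPM in cKO EAE and 579 ± 152 CPM in control EAE cords, and Lhx4 averaged 6.87 ± 2.08 CPM in cKO EAE and 2.34 ± 0.103 CPM in control EAE cords. Of the other subtype markers, Mmp9 and Spp1, motor neuron genes that macrophages also express, had log2 fold changes of 0.10 and -1.13. Htr1d, a serotonin receptor gene of gamma motor neurons, had 0.54 ± 0.31, and none of the 3 passed. Of the 20 genes tested 17 had a positive log2 fold change. Those that did not pass included Uts2 (1.95 ± 0.48), Vipr2 (1.43 ± 0.40), Calca (1.28 ± 0.50), Prph (1.24 ± 0.33) and Lhx3 (1.22 ± 0.36).

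Genes of neurons in general moved with them. Of 12 general neuron genes 7 rose in cKO EAE over control EAE cords, against 6.13% of all genes. Their median log2 fold change was 0.74, against -0.00019 over all genes tested. Their summed level was 7538 to 9975 CPM in cKO EAE and 4208 to 5526 CPM in control EAE cords. Of 6 genes of GABA, glycine and glutamate neurons 3 rose, with a median of 0.77, and the sums were 1414 to 2015 CPM in cKO EAE and 877 to 1072 CPM in control EAE cords. Slc6a5, the glycine transporter of inhibitory neurons, averaged 475 ± 55.5 CPM in cKO EAE and 216 ± 28.4 CPM in control EAE cords (log2 fold change 1.17 ± 0.14, adjusted p = 0.0440, edgeR). Their part in the result for the 9 genes was not tested. Relative to the control basal mean, the median of the 9 genes exceeded that of the 12 neuron genes in the cKO EAE libraries, by 0.92, 0.12 and 0.40 (log2). It lay below it, at -0.28, -0.46 and -0.99, in the control EAE libraries. Without disease the same difference also varied widely, at 0.36, -1.86 and -0.78 in the cKO basal libraries. In the control basal libraries it was -0.04, 0.09 and -0.19.

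**Figure D3:**
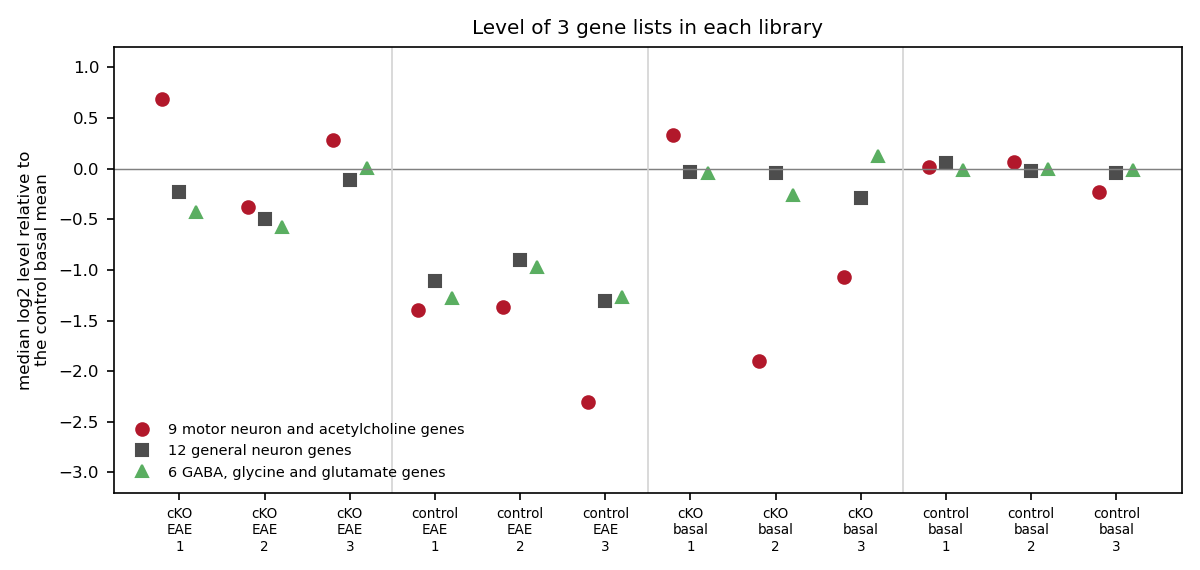
Median log2 level, relative to the control basal mean of each gene, of the 9 genes (circles), 12 general neuron genes (squares) and 6 GABA, glycine and glutamate genes (triangles) in each library. The 9 genes stand at -1.40, -1.37 and -2.30 in control EAE libraries, below the 12 neuron genes there. They stand at -1.90 in cKO basal 2 and -1.07 in cKO basal 3, also below the 12 neuron genes.

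Values for markers of other cells in the EAE groups were as follows. None of 8 leukocyte genes passed, with a median log2 fold change of -2.15, and their sum was 975, 1634 and 38.1 CPM in cKO EAE, against 7693, 3729 and 2892 CPM in control EAE cords. The 6 Schwann cell genes, of nerve roots, summed to 573, 131 and 295 CPM in cKO EAE, against 115, 128 and 108 CPM in control EAE cords. Of the 4 tested 0 passed, and 3 had a positive log2 fold change. Among them Pmp22 averaged 181.5 CPM in cKO EAE and 93.9 CPM in control EAE cords (with TMM factors). Egr2 went the other way, with a log2 fold change of -1.54 ± 0.52. The 10 sensory ganglion genes summed to 9.35, 21.5 and 33.4 CPM in cKO EAE, against 18.9, 17.9 and 21.02 CPM in control EAE cords, with Mrgprd at 0 throughout. Of these, 4 were tested. With TMM factors Pou4f1 and Drgx averaged 7.79 and 9.64 CPM in cKO EAE and 7.22 and 9.42 CPM in control EAE cords. P2rx3 and Avil averaged 1.47 and 0.689 CPM in cKO EAE and 0.525 and 0.914 CPM in control EAE cords. The 6 cord Hox genes summed to 171 to 218 CPM in cKO EAE, against 133 to 150 CPM in control EAE cords. The part of these cells in the result was not tested. cKO EAE 3, whose leukocyte sum was near the basal range of 11.1 to 21.9 CPM, had neither the highest nor the lowest level among the cKO EAE libraries for 8 of the 9 genes. All 9 genes had their lowest cKO EAE level in cKO EAE 2, the cKO EAE library with the highest leukocyte sum. In the control EAE group 7 of the 9 genes were lowest in control EAE 3, which had the lowest leukocyte sum. Only Ache and Isl1 were lowest in control EAE 1, which had the highest. cKO EAE 2 and control EAE 3 also had the lowest general neuron sums of their groups, at 7538 and 4208 CPM. Whether these orders are related was not tested.

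Without disease no difference between cKO and control cords passed the test, for the 9 genes or any other. With edgeR's Benjamini-Hochberg adjusted quasi-likelihood test 0 of 17133 genes passed (0%), 31 genes (0.181%) had an unadjusted p below 0.05, none of them among the 9, and DESeq2's Wald test called 1 gene, also not among the 9. The groups overlapped for all 9 genes, with cKO basal libraries far apart; of all genes 2.14% were higher and 3.64% lower in cKO basal cords without overlap. Slc5a7 had 113, 29.7 and 40.7 CPM in cKO basal cords, against 71.3, 96.9 and 73.3 CPM in control basal cords. Chat had 37.0, 0.637 and 11.4 CPM in cKO basal cords, against 20.2, 30.5 and 23.5 CPM in control basal cords. In both, cKO basal 1 was above every control basal library and the other two cKO basal libraries were below them all.

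Slc18a3 had 82.2, 12.1 and 20.6 CPM in cKO basal cords, against 70.1, 74.4 and 57.3 CPM in control basal cords. Ache had 269, 40.4 and 236 CPM in cKO basal cords, against 286, 294 and 269 CPM in control basal cords. Esrrg had 84.2, 19.5 and 62.9 CPM in cKO basal cords, against 67.1, 76.4 and 75.1 CPM in control basal cords. In these 3 genes cKO basal 2, the library with few genes detected, was lowest, and cKO basal 3 also lay below the control basal libraries. Isl1 had 3.37, 2.73 and 1.55 CPM in cKO basal cords, against 3.24, 2.21 and 2.15 CPM in control basal cords. Isl2 had 3.02, 2.82 and 1.25 CPM in cKO basal cords, against 2.92, 2.76 and 2.21 CPM in control basal cords. Chodl had 49.2, 34.7 and 10.1 CPM in cKO basal cords, against 46.0, 35.1 and 29.8 CPM in control basal cords. For Isl1, Isl2 and Chodl the lowest CPM was instead in cKO basal 3, and cKO basal 2 lay within the control basal range. That place rested on its TMM factor of 0.728, against 1.01 to 1.06 in the other libraries. In TPM, a level scaled by gene length and library size, cKO basal 2 had 1.13, 2.10 and 10.3 for Isl1, Isl2 and Chodl. The lowest control basal values were 2.03, 3.75 and 20.2 TPM. Mnx1, with 4.25, 0.546 and 0.596 CPM in cKO basal cords, against 3.24, 4.36 and 2.54 CPM in control basal cords, was low in both cKO basal 2 and cKO basal 3.

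The log2 fold changes ran from -0.89 ± 0.86 for Mnx1 to 0.02 ± 0.44 for Isl1, with a median of -0.39 against -0.02 over all genes tested. The standard errors were 0.44 to 1.09, against 0.14 to 0.49 in the same comparison at EAE. They rested on single libraries: Mnx1, Chat and Slc18a3 stood at -2.54, -2.03 and -2.04 without cKO basal 1, and at -0.48, -0.03 and -0.39 without cKO basal 2. None of the 9 passed without either.

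In control mice, EAE went with lower levels of the whole group. All 9 genes were lower in control EAE than in control basal cords with no overlap between the libraries, as were 27% of the 18601 genes tested over 12 libraries. By edgeR's quasi-likelihood test, Benjamini-Hochberg adjusted, 3 of the 9 fell, against 5.05% of all genes. Slc5a7 averaged 19.0 ± 6.53 CPM in control EAE and 80.5 ± 14.2 CPM in control basal cords (log2 fold change -2.08 ± 0.50, adjusted p = 0.0159, edgeR). Isl2 averaged 0.701 ± 0.304 CPM in control EAE and 2.63 ± 0.375 CPM in control basal cords (-1.90 ± 0.51 on the log2 scale, adjusted p = 0.0266, edgeR). Chodl averaged 9.46 ± 4.57 CPM in control EAE and 37.0 ± 8.27 CPM in control basal cords (-1.97 ± 0.56 on the log2 scale, adjusted p = 0.0348, edgeR). Their means in control EAE cords were 0.237 to 0.266 of those in control basal cords.

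The other 6 did not pass. Mnx1 averaged 0.838 ± 0.395 CPM in control EAE and 3.38 ± 0.919 CPM in control basal cords, Slc18a3 averaged 21.8 ± 7.04 CPM in control EAE and 67.3 ± 8.89 CPM in control basal cords, and Chat averaged 8.91 ± 3.57 CPM in control EAE and 24.7 ± 5.28 CPM in control basal cords. Their log2 fold changes were -2.003 ± 0.77, -1.63 ± 0.60 and -1.47 ± 0.90. Isl1, Esrrg and Ache had -1.04 ± 0.39, -1.21 ± 0.42 and -0.90 ± 0.50 on the same scale, and the adjusted p of the 6 ran from 0.0766 to 0.331 (edgeR). The fit pooled the spread of all 12 libraries; with the 6 control libraries alone, 9 of 9 passed (45.6% of all genes did), and with cKO basal 2 and cKO EAE 3 left out, 9 of 9 as well (45.8%). Without control EAE 3 or control basal 2 none passed (9.28% and 9.17% of all genes did), and without any other control library only 1 did (9.04% to 10.9%).

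Other motor neuron and receptor genes were lower in control EAE cords too. Of all genes tested 12.1% were called higher and 5.05% lower in control EAE cords. Among the 21 other motor neuron genes 4 fell, namely Uts2, urotensin 2 (-2.44 ± 0.51 on the log2 scale), Calca, the gene of the peptide CGRP (-2.21 ± 0.54), Nefh (-1.39 ± 0.32) and Htr1d (-1.13 ± 0.33), while 2 rose, Aldh1a2, a retinoic acid synthesis gene also expressed in meninges (1.37 ± 0.38), and Spp1 (1.93 ± 0.55). Of 15 receptor genes tested Chrna2 (-2.55 ± 0.58) and Chrnb2 (-0.81 ± 0.19) fell. Of 10 supply and clearance genes tested Bche fell (-1.07 ± 0.33) and Slc44a2 rose (1.03 ± 0.30). Of the general neuron genes 6 of 12 fell, with a median log2 fold change of -1.11, and of the other transmitter genes 3 of 6 fell, with a median of -1.18, beside a median of -1.63 for the 9 genes and -0.01 for all genes tested. All 8 leukocyte genes rose, and their part, like that of the sex of the mice, was not tested.

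In cKO mice EAE went with no passing change. All 9 genes overlapped between cKO EAE and cKO basal cords, whereas 9.8% of all genes were higher and 5.78% lower without overlap. By edgeR's quasi-likelihood test, Benjamini-Hochberg adjusted, 0 of 9 passed, against 0.0376% of all genes (7 genes); none of the 9 had an unadjusted p below 0.05, against 19.6% of all genes, and DESeq2's Wald test called 0 of 9. The log2 fold changes were all positive, at 1.04 ± 0.59 for Slc18a3, 0.99 ± 0.88 for Chat, 0.94 ± 0.73 for Mnx1, 0.76 ± 0.48 for Isl2, 0.66 ± 0.48 for Slc5a7, 0.50 ± 0.42 for Esrrg, 0.38 ± 0.54 for Chodl, 0.32 ± 0.49 for Ache and 0.32 ± 0.38 for Isl1, with a median of 0.66 against 0.08 over all genes tested. Slc5a7 averaged 96.6 ± 34.7 CPM in cKO EAE and 61.2 ± 45.5 CPM in cKO basal cords, and Chat averaged 32.6 ± 13.4 CPM in cKO EAE and 16.3 ± 18.7 CPM in cKO basal cords. The cKO basal SD exceeded the cKO EAE SD for both.

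**Figure D4:**
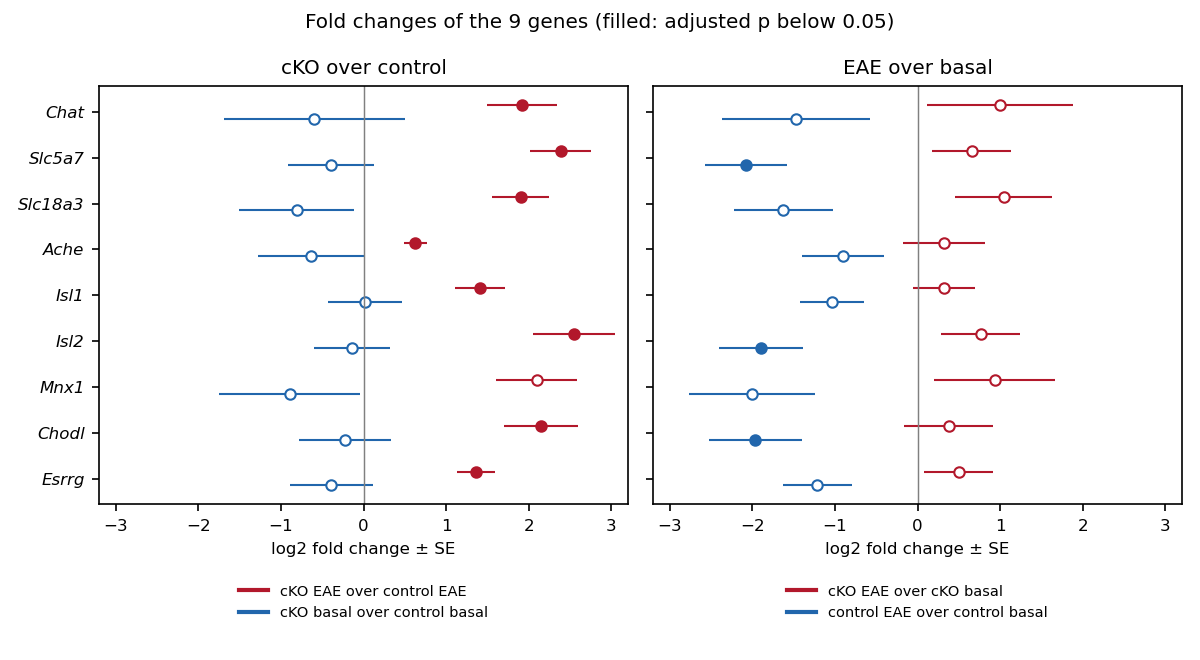
Log2 fold changes with their standard errors for the 9 genes. Left, cKO over control at EAE (red) and basal (blue); right, EAE over basal in cKO (red) and control (blue) mice. Filled points passed an adjusted p of 0.05; at EAE 8 of 9 were filled and positive, in control mice 3 of 9 were filled and negative.

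The difference between the EAE responses of cKO and control mice was tested directly as an interaction over the 12 libraries. It was positive for all 9 genes, between 1.23 ± 0.70 for Ache and 2.94 ± 1.06 for Mnx1 on the log2 scale, with 2.74 ± 0.69 for Slc5a7, 2.67 ± 0.84 for Slc18a3, 2.66 ± 0.70 for Isl2, 2.46 ± 1.26 for Chat, 2.34 ± 0.78 for Chodl, 1.71 ± 0.59 for Esrrg and 1.36 ± 0.54 for Isl1. Single libraries moved some of these: without cKO basal 1 Mnx1 stood at 4.61 and Chat at 3.89, and without cKO basal 2 Ache stood at 0.74. None passed edgeR's quasi-likelihood test (Benjamini-Hochberg adjusted p = 0.547 to 0.599), nor did any gene of the table (0%); 7 of the 9, all but Chat and Ache, were positive with an unadjusted p below 0.05, against 3.97% of all genes. DESeq2's Wald test called Slc5a7 alone of the 9 (0.414% of all genes) and limma's voom test with sample weights called all 9 (16.1% of all genes), so that whether the responses differ turned on the test used. The comparisons share samples: control EAE libraries enter the cKO against control comparison at EAE, the EAE response of control mice and the interaction.

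Per transcript length the 9 genes differed widely in level. In control basal cords the order in TPM, a level scaled by gene length and library size, was Ache 214 ± 18.5, Slc18a3 97.5 ± 13.0, Slc5a7 50.2 ± 11.5, Esrrg 41.3 ± 6.22, Chodl 23.3 ± 3.12, Chat 18.6 ± 5.05, Mnx1 5.27 ± 1.56, Isl2 4.18 ± 0.420 and Isl1 2.21 ± 0.321 (SD, n = 3). The libraries of Slc5a7 and Esrrg, of Chodl and Chat, and of Mnx1 and Isl2 overlapped, so that these neighbours did not differ beyond their spread. In cKO EAE cords the first 6 stood in the same order, from Ache at 176 ± 37.4 TPM to Chat at 24.7 ± 9.88 TPM. In control EAE cords Esrrg, at 17.2 ± 3.45 TPM, came before Slc5a7, at 11.4 ± 3.99 TPM, but their libraries overlapped; the 3 transcription factor genes lay between 1.05 and 1.26 TPM. In cKO basal cords every gene overlapped the next in order.

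The libraries ranked much alike for the 9 genes in the cKO EAE, control EAE and cKO basal groups, and less so in the control basal group. Within the EAE groups, cKO EAE 1 had the highest cKO EAE level of 8 genes (all but Ache), and control EAE 2 the highest control EAE level of 8 (all but Chodl), while cKO EAE 2 was lowest for 9 and control EAE 3 for 7. cKO basal 1 had the highest cKO basal CPM of all 9. The lowest was in cKO basal 2 for 6 genes and in cKO basal 3 for Isl1, Isl2 and Chodl. In TPM cKO basal 2 was lowest for Isl1 and Isl2 as well. Control basal 1 was highest for Isl1, Isl2 and Chodl and lowest for Chat, Slc5a7 and Esrrg. Over the 12 libraries Pearson's r between pairs of the 9 genes (log2 of CPM + 1) ran from 0.21 for Isl1 and Ache to 0.98, with a median of 0.79 over 36 pairs; the points share group differences and depth, and this is a description. Slc18a3 had 1.81 to 3.48 reads per Chat read in 11 libraries and 19.0 in cKO basal 2.

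Among 14472 genes with a mean of at least 1 CPM, those whose pattern over the 12 libraries was most like that of Slc5a7 were Eya2 (r = 0.98), Sv2b, Fgf11, Asb13 and Rimkla (r = 0.97). Those most like Chat were Arhgap36 (r = 0.98), Mcam, Acly, Lrsam1 and Dffa (r = 0.97). Like Chat, at 0.637 CPM, each of these had its lowest level in cKO basal 2, the library with few genes detected. In the order named they had 6.46, 18.4, 121, 18.6 and 21.3 CPM there. Those most like Isl1 were Isl2 (r = 0.94), Cd55, Evx1, Parg and Fech (r = 0.91). Slc5a7 and Chat themselves correlated at 0.78, and Isl1 and Chat at 0.44. The part of cKO basal 2 in these correlations was not tested.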

How the data were processed

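The authors deposited 1 table of raw read counts per gene for the 12 libraries; alignment with HISAT2 2.0.5 to mm10 and counting with featureCounts 1.5.0-p3 are named in the submitters' processing notes. The strand setting, library kit, annotation release and handling of multi-mapping reads are not given in the sources used here. Reads of Chat and its antisense neighbour Gm2990 (6 to 77 counts), and of Esrrg and Gm36388 (8 to 32 counts), could therefore be confused.

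From the deposited counts, edgeR 4.0.16 (limma 3.58.1, R 4.3.3) gave TMM factors, the filterByExpr filter and the quasi-likelihood F test, with p-values adjusted by Benjamini-Hochberg over all genes tested and a threshold of 0.05; the SE was the size of the log2 fold change divided by the square root of F. cKO and control were compared within the 6 EAE and the 6 basal libraries, and the EAE responses and their difference in a fit of all 12. TPM was computed from the table's gene lengths, and marker sums are CPM of the library total. The 12 column names matched the labels of 12 samples. The p-values measure the spread between these samples only. All 9 genes were named in every comparison; of each other list, up to 4 genes with the smallest p at EAE and those that passed. Other genes named from the lists were chosen after their values were seen. They were Mmp9, Spp1, Htr1d, Uts2, Vipr2, Calca, Prph, Lhx3, Chrna1, Chrnb1, Chrnd, Chrne, Chrng and the choline transporter-like and kinase genes. The 9 genes and all lists were chosen with earlier results of these data known, and no list was tested as a set. The fits were checked on simulated data. Alternatives were DESeq2 1.42.0, its size factors, no filter, a replicate block, voom, other sets of libraries and leaving out each replicate. The sequences are from RefSeq on GRCm38.p6, and the coordinates of the 9 genes from the deposited table, which were the same in GENCODE M21 for all 9.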

Additional observations from a re-analysis of the deposited data

How the results depend on the processing

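Of the 9 genes, 8 passed in cKO EAE against control EAE cords; 5 did with DESeq2 size factors (5.74% of all genes), 0 with all 12 libraries in the fit, and 0 to 9 when each replicate was left out. With the replicate number as a block 0 passed at EAE, 3 in the EAE response of control mice and 0 in each other comparison. The share of all genes passing with the block is not given here, so the 3 cannot be set against it. Same-numbered libraries deviated from their group means with correlations of -0.46 to 0.37, so that the numbers were not taken to pair the samples. In control EAE against control basal cords 3 passed; 6 did with DESeq2's Wald test (24.1% of all genes), 9 without cKO basal 2 and cKO EAE 3, 9 with only the groups compared, and 0 to 1 when each replicate was left out. For the difference between the responses 0 passed, 1 with DESeq2's Wald test and 9 with voom and sample weights. Apart from the block, shares of all genes for the counts in this paragraph stand here or with the comparison above. No share is given for DESeq2's Wald test in cKO EAE against cKO basal cords. Nor is one given for cKO basal against control basal cords without cKO basal 1 or cKO basal 2. The cause of these changes in the number passing was not tested. Signs changed only where no gene had passed. In cKO basal against control basal cords the log2 fold change of Isl1, 0.02, was -0.029 without the filter and -0.027 with the replicate block, and -0.24 to 0.27 when each replicate was left out; the ranges for Isl2, Chodl and Esrrg were -0.37 to 0.16, -0.71 to 0.19 and -0.82 to 0.015. Over all alternatives run, the same comparison gave -2.54 to -0.48 for Mnx1, -2.03 to -0.03 for Chat, -2.04 to -0.39 for Slc18a3, -1.19 to -0.06 for Slc5a7 and -1.03 to -0.16 for Ache, and the difference between the responses gave 2.49 to 4.61 for Mnx1, 1.88 to 3.89 for Chat and 0.60 to 1.63 for Ache. In cKO EAE against cKO basal cords that of Ache was -0.29 without cKO basal 2 and cKO EAE 3 and -0.15 to 0.72 when each replicate was left out, and that of Chodl -0.069 to 0.88. In the cKO against control comparison at EAE and in the EAE response of control mice, no gene of the 9 changed sign under any alternative run. Isl1, Isl2 and Mnx1 had 6 to 23 reads in control EAE libraries, so that their levels there carry more counting error than those of the other 6 genes.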
